A study of Homo sapiens with 6 samples.

Results

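The genes examined here encode 10 subunits of CCR4-NOT, the main complex that shortens the poly(A) tails of messenger RNAs. They were taken by gene name from 3 lists of N6-methyladenosine (m6A) peaks, and 8 of the 10 had at least 1 peak, with 17 peaks in all of the 41729 in the lists. The lists come from U2OS cells, a human bone osteosarcoma line labelled as wild type, treated with DF2 siRNA #1, with DF2 siRNA #2 or with control siRNA. The target of both DF2 siRNAs is YTHDF2, a protein that recognises m6A and speeds the decay of RNAs that carry it. For each of the 3 conditions 1 library of RNA enriched with an anti-m6A antibody and 1 unenriched input library were sequenced from cytoplasmic RNA broken into fragments of about 100 nt, and 1 peak list was deposited. The extent of the YTHDF2 knock-down is not measured by these lists.

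CCR4-NOT is built on the scaffold CNOT1. CNOT2 and CNOT3 form a dimer that docks on one end of the scaffold, CNOT10 and CNOT11 form a module on the other end, and CNOT9 offers a surface for peptides of RNA-binding proteins. Nucleases of different folds remove the adenosines, the paralogs CNOT7 and CNOT8 of the CAF1 family and the paralogs CNOT6 and CNOT6L of the CCR4 family. CNOT4 is a ubiquitin ligase that associates loosely with the human complex. YTHDF2 is known to bring CCR4-NOT to methylated RNAs by contacting CNOT1, so the genes described here encode the enzyme complex that the reader works through, and the peaks show where their own messenger RNAs were enriched by the m6A antibody.

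The control list held 15272 peaks, the siRNA 1 list 13147 and the siRNA 2 list 13310. Each peak carries a score, a fold enrichment over input and a false discovery rate (FDR), all of them the authors' values. The score is a whole number that the sources used here do not define, and its median was 158 for control, 33 for siRNA 1 and 99 for siRNA 2. A score is therefore given with its percentile, its mean rank from the bottom of its own list as a share of the list, and values of different lists stand side by side without measuring a change. Each condition has a single list, whose name calls it a merge of r1 and r2 without saying what these are. No replicates could therefore be compared, the values carry no SD and differences between lists were not tested. A list cannot tell an RNA that lacks the mark from an RNA with too few reads to call a peak, and read depth is unknown here. Of 10 mesenchymal and bone markers 2, 3 and 2 had a peak in the control, siRNA 1 and siRNA 2 lists (VIM, COL1A1 and RUNX2 in at least 1 of them), of 6 epithelial markers 0, 1 and 1 (KRT8), and of 3 blood markers 0 in each list. The labels call the cells epithelial, and peak presence does not measure the level of these RNAs.

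CNOT2, CNOT4 and CNOT6 carried an m6A peak in all 3 lists. CNOT7, CNOT10 and CNOT11 had a peak in the control list alone, and CNOT1 and CNOT8 had one in the siRNA 1 list alone. CNOT3, the partner of CNOT2, and CNOT6L, the paralog of CNOT6, had no peak in any list. Of the 8 genes with a peak, the control list thus held 6 (88.6% of all 10785 genes with a peak in any list), the siRNA 1 list 5 (77.6%) and the siRNA 2 list 3 (79.4%). The 3 genes in all lists compare with 65.4% of all genes, the 3 in control alone with 12.0% and the 2 in siRNA 1 alone with 5.03%. None of the 8 was found with siRNA 2 alone (2.85% of all genes), with both siRNAs and not control (3.55%), with control and siRNA 1 alone (3.62%) or with control and siRNA 2 alone (7.57%). Of the 6 control genes, 3 had no siRNA 1 peak (22.1% of all control genes), 3 no siRNA 2 peak (17.6%) and 3 neither (13.5%), while 2 of 5 siRNA 1 genes (11.1%) and 0 of 3 siRNA 2 genes (8.06%) lacked a control peak. With 8 genes these shares describe the complex and do not set it apart from other genes. With peaks of an FDR under 0.01 alone, 5 of the subunit genes remained, 5 in control (87.3% of all genes), 3 with siRNA 1 (76.8%) and 3 with siRNA 2 (78.9%), and CNOT1, CNOT8 and CNOT10 had none. With the 13147 highest scores from each list, the control list held 4 and CNOT11 was the 1 gene found in control alone (7.34% of all genes).

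**Figure D1:**
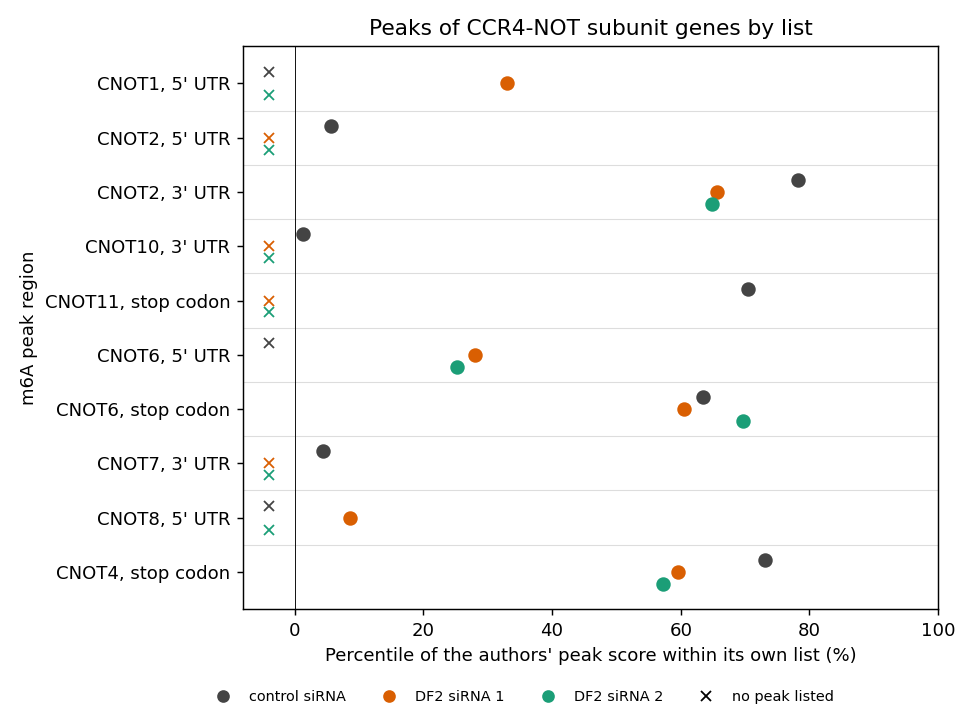
Percentile of the authors' score of each peak within its own list, by peak region (rows) and list (colours), with crosses on the left where a list holds no peak. The 9 points of the CNOT2 3′ UTR, CNOT4 and CNOT6 stop codon regions lie between 57.2 and 78.2. Apart from CNOT11 at 70.4 in the control list, every other point lies at 33.1 or below. Over all peaks in regions of all 3 lists, the median percentile was 66.2, 56.0 and 60.6 in control, siRNA 1 and siRNA 2. It was 15.4 for control alone and 31.5 for siRNA 1 alone. For both siRNAs and not control it was 39.7 (siRNA 1) and 45.7 (siRNA 2).

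The 17 peaks fell into 10 regions of the genome after peaks that overlap between lists were joined. Of these regions 3 held a peak in all 3 lists (50.8% of all 17771 regions), 4 in control alone (19.1%), 2 in siRNA 1 alone (8.0%) and 1 in both siRNA lists and not control (5.25%). The patterns siRNA 2 alone (4.87%), control with siRNA 1 (3.46%) and control with siRNA 2 (8.52%) had 0. Of 7 control peaks, the same 3 overlapped a peak of siRNA 1 (67.1% of all control peaks) and of siRNA 2 (73.4%), and so of both (62.8%). Of 6 siRNA 1 peaks, 3 overlapped control (81.5%), 4 overlapped siRNA 2 (83.6%) and 3 overlapped both (75.9%). Of 4 siRNA 2 peaks, 3 overlapped control (86.1%), 4 overlapped siRNA 1 (80.5%) and 3 overlapped both (73.2%). In the 3 regions found in every list the peak had the same start, end and covered bases each time. Over the whole series this was so for 2288 of 9021 such regions or 25.4% (24.5 to 26.3, 95% exact binomial interval). Regions with more than 1 peak in a list are among the 9021 and were counted as not the same. With 3 regions, the match does not set the subunits apart from other genes.

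CNOT1, the scaffold that YTHDF2 contacts, was listed with siRNA 1 alone. Its peak, at chromosome 16 from 58624754 to 58629886 on the minus strand (hg38), covered 200 bases of 5′ UTR in 2 pieces of 159 and 41 bases and began 60 bases before the RefSeq gene start. It had a score of 18 (percentile 33.1), a fold of 7.94 and a −log10 FDR of 1.33, the lowest −log10 FDR of the 17 peaks. No peak lay on the rest of the 109876-base gene on its own strand. Peaks within its span on the other strand belonged to SETD6 and RP11-481J2.4.

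CNOT2, which docks on the scaffold together with CNOT3, had the control peak with the highest score and fold among the 10 subunits. This peak lay in the 3′ UTR on the plus strand of chromosome 12, from 70354601 to 70354993, and its last base is the last base of the RefSeq gene. Its score was 666 in control (rank 3321), 61 with siRNA 1 (rank 4479) and 189 with siRNA 2 (rank 4668). The percentiles were 78.2, 65.7 and 64.9 in the same order, so the peak stood in the upper part of each list. The authors' fold was 42.3 in control, 25.9 with siRNA 1 and 25.3 with siRNA 2, and the −log10 FDR was 10.2, 8.51 and 5.46. The control fold is the highest of all 17 peaks.

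A second CNOT2 peak, in the control list alone, covered 200 bases of 5′ UTR from 70242994 to 70243193. It had a score of 6 (percentile 5.65), a fold of 5.14 and a −log10 FDR of 1.47, and so ranked among the weakest control peaks. CNOT3 had no peak, and the peaks over its gene on chromosome 19 in the control and siRNA 2 lists belonged to LENG1 on the opposite strand.

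The CNOT10 and CNOT11 module was listed in control alone, with peaks of very different strength. The CNOT11 peak covered 400 bases of coding sequence, stop codon and 3′ UTR on chromosome 2, from 101269331 to 101269730 on the plus strand. Its score was 452, rank 4511 of 15272 and percentile 70.4, with a fold of 17.5 and a −log10 FDR of 3.19. Of the 3401 control peaks that overlap neither siRNA list, 104 or 3.06% had a score as high, and their median percentile was 15.4. By fold the CNOT11 peak stood lower, at percentile 46.3, and by −log10 FDR at percentile 35.2. No peak of another gene name lay on the span of CNOT11 in either siRNA list.

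The CNOT10 peak covered 46 bases of 3′ UTR on chromosome 3, from 32773830 to the last base of the gene at 32773875. It had the lowest score in the lists, 3, which 388 control peaks share, with a fold of 3.42 and a −log10 FDR of 1.35. It is the narrowest of the 17 peaks and the lowest by score and fold.

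Of the nucleases, CNOT6 was the gene with peaks at both ends. Its stop codon peak, on chromosome 5 from 180574020 to 180574419 on the plus strand, covered 400 bases in every list. The score was 315 in control, 50 with siRNA 1 and 233 with siRNA 2, at percentiles 63.4, 60.6 and 69.6. The fold was 21.8, 16.1 and 23.4 and the −log10 FDR 4.48, 3.96 and 4.77 in the same order. By percentile, the siRNA 2 list ranked this peak highest, unlike the peaks of CNOT2 and CNOT4, which stood highest in control.

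At its other end CNOT6 had a 5′ UTR peak with both DF2 siRNAs and none in control. From 180494412 to 180495468, it covered 352 bases of a first piece and 48 bases of a second and began 33 bases after the RefSeq gene start, with the same boundaries in both lists. The score was 15 with siRNA 1 (percentile 28.0) and 28 with siRNA 2 (percentile 25.2), and the fold was 9.47 and 8.69. The −log10 FDR was 4.16 with siRNA 1 and 1.53 with siRNA 2, so the siRNA 2 peak is absent with an FDR under 0.01. Of siRNA 1 peaks in joined regions held by both siRNA lists and not control, 40.1% (37.0 to 43.3) were 5′ UTR peaks. The share was 13.0% (12.4 to 13.7) of siRNA 1 peaks in regions found in all 3 lists. It was 46.2% (43.6 to 48.9) in regions of siRNA 1 alone and 18.9% in regions of control and siRNA 1. Among siRNA 2 peaks it was 42.2% with both siRNAs and not control and 29.8% with siRNA 2 alone. A high share is therefore not particular to regions held by both siRNA lists. The CNOT6 5′ peak thus lies in the class of transcript part that is most frequent among peaks of that pattern.

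CNOT6L, the other CCR4-type nuclease, had no peak on a gene span of 106883 bases. The CAF1-type pair had 1 weak peak each, in different lists and at different ends of the RNA. CNOT7 had a control peak over 200 bases of 3′ UTR, located at chromosome 8 from 17227507 to 17227706 on the minus strand, with a score of 5 (percentile 4.45), a fold of 5.14 and a −log10 FDR of 2.28. CNOT8 had a siRNA 1 peak over 200 bases of 5′ UTR, located at chromosome 5 from 154858478 to 154858677 on the plus strand, with a score of 6 (percentile 8.67), a fold of 5.52 and a −log10 FDR of 1.61. The sources used here do not say how reads that fit more than 1 paralog or pseudogene were counted.

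CNOT4, the ubiquitin ligase, had the widest peak, 1000 bases in 3 pieces of 392, 498 and 110 bases on the minus strand of chromosome 7, from 135388503 to 135395743. The authors annotate it with the stop codon and with coding and both kinds of UTR sequence. Its score was 519 in control, 48 with siRNA 1 and 135 with siRNA 2, at percentiles 73.1, 59.5 and 57.2. The fold was 28.5, 19.0 and 19.0, and the −log10 FDR was 6.45, 5.51 and 4.21. The control list ranked it highest by each of these measures. The peak lay between 77.1% and 82.0% of the gene span, farther from the gene end than the stop codon peaks of CNOT6 and CNOT11.

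**Figure D2:**
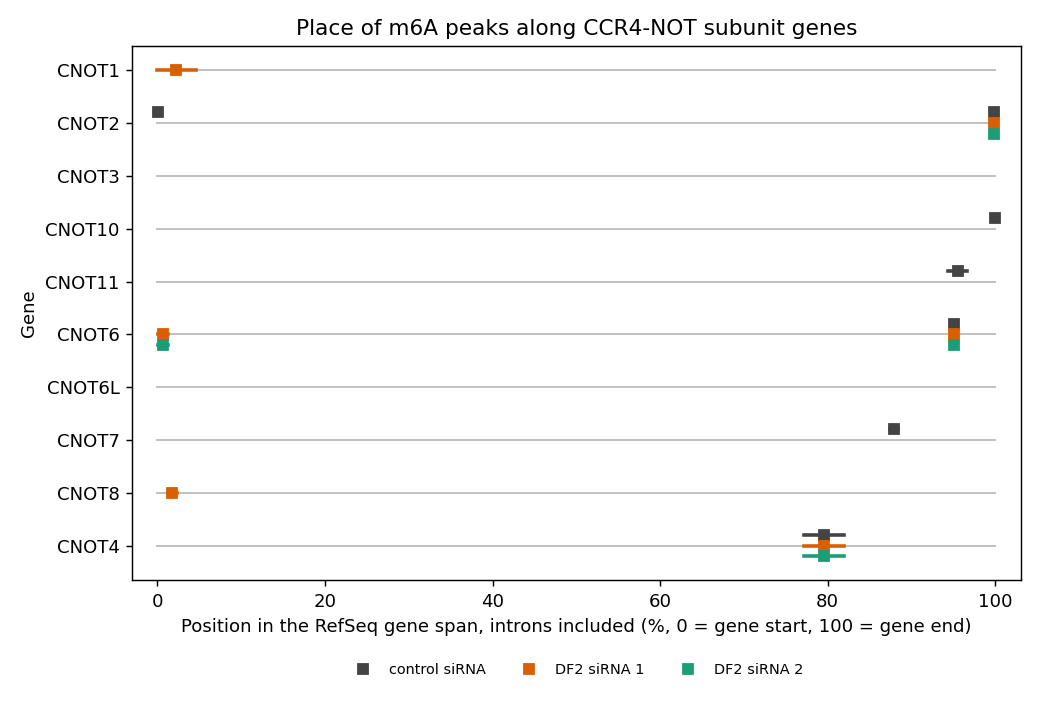
Place of each peak along the RefSeq span of its gene, introns included (0% is the gene start and 100% the gene end on the gene's own strand), by gene (rows) and list (colours), with lines from the first to the last base of a peak and squares at the midpoint. The 4 regions of the 5′ UTR lie within the first 4.62% of the span, and the others lie beyond 77.1%.

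By place, 3 of the 10 regions included the stop codon, 3 lay in the 3′ UTR and 4 in the 5′ UTR. None of the 4 regions of the 5′ UTR was found in all lists, that is 0 of 1 control peak of this kind (59.4% of all control 5′ UTR peaks), 0 of 3 with siRNA 1 (53.2%) and 0 of 1 with siRNA 2 (60.1%). Of the stop codon peaks, 2 of 3 in control (78.5%), 2 of 2 with siRNA 1 (85.6%) and 2 of 2 with siRNA 2 (86.8%) lay in regions found in all lists. In the 3′ UTR the same held for 1 of 3 control peaks (51.2%), for the 1 siRNA 1 peak (78.4%) and for the 1 siRNA 2 peak (71.2%). With 1 to 3 peaks each, these counts set the subunits apart from no other genes. The control list held 3 stop codon peaks of 7 (42.9% of all control peaks), 3 in the 3′ UTR (19.1%) and 1 in the 5′ UTR (14.4%). The siRNA 1 list held 2 stop codon peaks of 6 (43.5%), 1 in the 3′ UTR (17.1%) and 3 in the 5′ UTR (18.9%), from CNOT1, CNOT6 and CNOT8. The siRNA 2 list held 2 stop codon peaks of 4 (43.7%) and 1 each in the 3′ UTR (17.1%) and 5′ UTR (16.6%). No peak of the complex lay in coding sequence alone or in non-coding RNA. Over all peaks, each of these classes held from 7.6% to 12.6% of a list, both limits being control values. With 7, 6 and 4 peaks in the control, siRNA 1 and siRNA 2 lists, their absence does not set the subunits apart from other genes.

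The 5 peaks of the 5′ UTR had folds of 5.14 to 9.47 and percentiles of 5.65 to 33.1, and 1 of them had an FDR under 0.01 (69.9%, 75.4% and 73.5% of all 5′ UTR peaks in control, siRNA 1 and siRNA 2). The 7 stop codon peaks had folds of 16.1 to 28.5 and percentiles of 57.2 to 73.1. All 7 had an FDR under 0.01 (90.3%, 90.7% and 89.9% of all stop codon peaks). These 7 peaks come from 3 regions, and the 5 of the 5′ UTR from 4. Peaks of the same region in different lists are not separate sites. Stop codon and 5′ UTR peaks did not overlap in fold or percentile, while the −log10 FDR of the CNOT6 5′ peak with siRNA 1 lay within the stop codon range of 3.19 to 6.45. Over all peaks the median fold was likewise lower in the 5′ UTR (13.0, 11.4 and 14.1) than at the stop codon (29.3, 22.9 and 27.6). So was the median percentile, at 37.0, 38.6 and 40.2 in the 5′ UTR and 68.5, 65.7 and 66.5 at the stop codon. With so few peaks, the lack of overlap does not set the subunits apart from other genes. The 5 peaks of the 3′ UTR ran from below to above both ranges in fold and percentile, with CNOT10 and CNOT7 lowest and CNOT2 highest. The 9 peaks found in all lists had a −log10 FDR of 3.96 to 10.2.

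**Figure D3:**
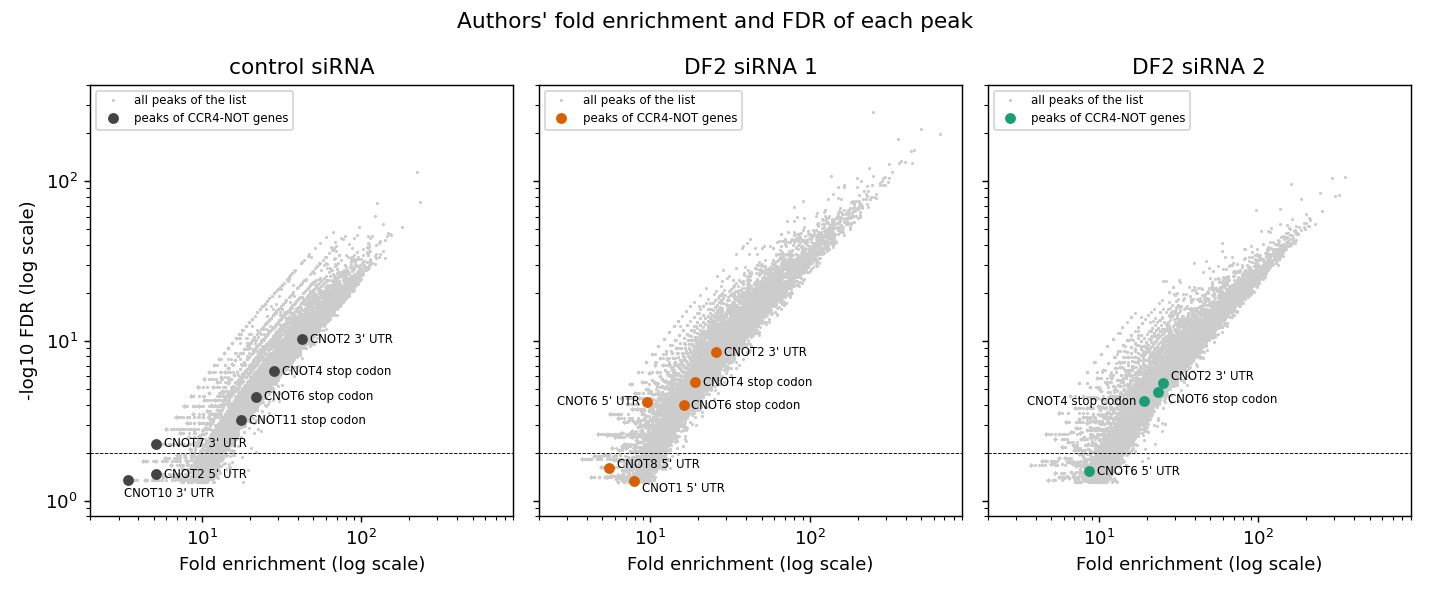
Authors' fold enrichment (x axis, log scale) against −log10 FDR (y axis, log scale) of every peak of each list (grey) and of the CCR4-NOT genes (coloured), with a dashed line at an FDR of 0.01. The peaks below the line are CNOT2 5′ UTR and CNOT10 in control, CNOT1 and CNOT8 with siRNA 1, and CNOT6 5′ UTR with siRNA 2.

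By score, 10 of the 17 peaks lay at percentiles of 57.2 to 78.2 and the other 7 at 33.1 or below, and none was in the top 10% of its list. The median percentile over the genes' peaks was 63.4 in control (35.2 by −log10 FDR), 46.3 with siRNA 1 and 61.0 with siRNA 2, and the median fold was 17.5, 12.8 and 21.2, against 19.1, 14.9 and 18.7 over all peaks. Of the 17 peaks 12 had an FDR under 0.01, 5 of 7 in control, 4 of 6 with siRNA 1 and 3 of 4 with siRNA 2, against 81.2%, 82.7% and 82.7% of all peaks.

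Sequence of the 5′ peaks was read from the RefSeq promoter table (GRCh38.p14), which gives 300 bases around a transcript start, 250 before and 50 after it. The table holds 8 of the 10 genes, without CNOT1 and CNOT7, and in 3 genes (CNOT2, CNOT6 and CNOT8) a window shares bases with a peak. The m6A writer prefers an adenosine followed by cytosine, most often within GGACT, so the words GGAC and NGACT, which overlap in GGACT, were searched on both strands. On the strand of the gene, GGAC is present in 66.3% and NGACT in 58.5% of all 35116 windows (87.4% and 82.8% on either strand). These shares are for whole windows of 300 bases. They give no expected rate for the shorter parts inside peaks. The CNOT2 control peak shares 74 bases with 1 window, which hold 1 GGACT, at 70243048 to 70243052. The 11 bases that it shares with another window hold neither word. The CNOT8 siRNA 1 peak shares 199 of its 200 bases with a window that holds no GGAC on the gene's strand and 1 NGACT, at 154858510 to 154858514. Only 17 bases of the CNOT6 peak fall in a window, with neither word. The 2 matches of NGACT inside a peak are shown because they are where the letters of the m6A site meet a 5′ peak, with 30 bases each, 5′ to 3′, on the plus strand, and the matched word in capitals (chr12:70243035-70243064 and chr5:154858497-154858526). A match is a description of the sequence and does not place a methylated base.
CNOT2: ccccggggagggcGGACTgaagccacctca
CNOT8: cgcgcgtctggagTGACTctagagagcagg

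The other genes of the deadenylation pathway, 70 in 6 sets by role, included 49 with a control peak, 47 listed with siRNA 1 and 42 with siRNA 2. Of these, 17 had no peak, and over the 53 with a peak the counts compare with 88.6%, 77.6% and 79.4% of all genes. All lists held 40 of them (65.4% of all genes), control alone 4 (12.0%), siRNA 1 alone 4 (5.03%) and both siRNAs without control 0 (3.55%). Counts over the sets below, taken out of the genes of a set with a peak, are to be read against these shares. Of the 2 other proteins of the complex, both were in all lists and ranked higher than the 10 subunits. CNOT9 (RQCD1 in the files) had a stop codon peak at percentile 90.2 in control, 87.1 with siRNA 1 and 92.5 with siRNA 2. TNKS1BP1, a CCR4-NOT-associated protein, had a 3′ UTR peak at percentiles 98.1, 99.6 and 98.2. CNOT9 also had a 5′ UTR peak with siRNA 2 alone, with a score of 25 and a −log10 FDR of 1.99.

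Among 9 deadenylases and related 3′ nucleases outside CCR4-NOT, 8 had a peak. Of these, 7 were in all lists (65.4% of all genes with a peak), among them ANGEL1, NOCT, PAN2 and PAN3. NOCT (nocturnin, CCRN4L in the files) stood at percentiles 90.7, 90.1 and 90.8, PAN2 at 54.7, 20.8 and 39.8 and its partner PAN3 in the PAN2-PAN3 deadenylase at 67.3, 56.0 and 56.0. The strongest ANGEL1 peak of control overlapped neither siRNA list. ANGEL2 was listed in control alone, with a fold of 10.8 in the 3′ UTR. PARN, a poly(A)-specific ribonuclease, had no peak. Of 6 TOB and BTG adaptors, antiproliferative proteins that bind the CAF1-type nucleases, 4 had a peak. These, BTG1, BTG2, TOB1 and TOB2, were in all lists (65.4% of all genes with a peak), while BTG3 and BTG4 had no peak. TOB1 stood at percentiles 99.8, 99.5 and 99.0, above the CNOT7 and CNOT8 peaks.

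Of 9 poly(A)-binding proteins and their partners, 3 had a peak. Of these 3, PABPN1, the nuclear one, was in all lists (percentiles 91.8, 97.4 and 96.5), against 65.4% of all genes with a peak. PABPC1L was listed in control alone with the lowest score, 3, PAIP1 with siRNA 1 alone in the 5′ UTR at percentile 63.4, and 6 had no peak (PABPC1, PABPC3, PABPC4, PABPC5, PAIP2 and PAIP2B). Of 31 RNA-binding proteins that recruit the complex or are linked to it, 29 had a peak, 27 of them in the control list (88.6% of all genes), 26 in that of siRNA 1 (77.6%) and 23 in that of siRNA 2 (79.4%), with 22 in every list (65.4%), among them BICC1, CPEB2, CPEB4 and GIGYF2. YTHDF2, the siRNA target, is also among these 22, with a stop codon peak at percentiles 99.1, 84.3 and 66.6. CPEB1 and RC3H2 were listed in control alone, both at percentile 3.26 or below. GIGYF1 and SAMD4B were listed with siRNA 1 alone, at percentiles 43.1 and 48.8. NANOS2 and NANOS3 had no peak. PUM2 and UNK lacked a siRNA 2 peak and CPEB3 a siRNA 1 peak. The PUM2 peaks lay in different places, in the 3′ UTR at percentile 71.0 in control and in the 5′ UTR at percentile 13.9 with siRNA 1.

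Of 13 translation repressors and decapping factors that act after or beside deadenylation, 7 had a peak and 4 were in all lists (65.4% of all genes with a peak). These were DCP2, the decapping enzyme, DDX6, an RNA helicase that binds CNOT1, EDC3 and EIF4ENIF1. DDX6 stood at percentiles 99.2, 97.8 and 94.4. EIF4E2 lacked a siRNA 2 peak, DCP1A a siRNA 1 peak, LSM14A was listed with siRNA 1 alone in the 5′ UTR, and 6 had no peak (PATL1, EIF4A2, DCP1B, EDC4, LSM14B and XRN1).

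**Figure D4:**
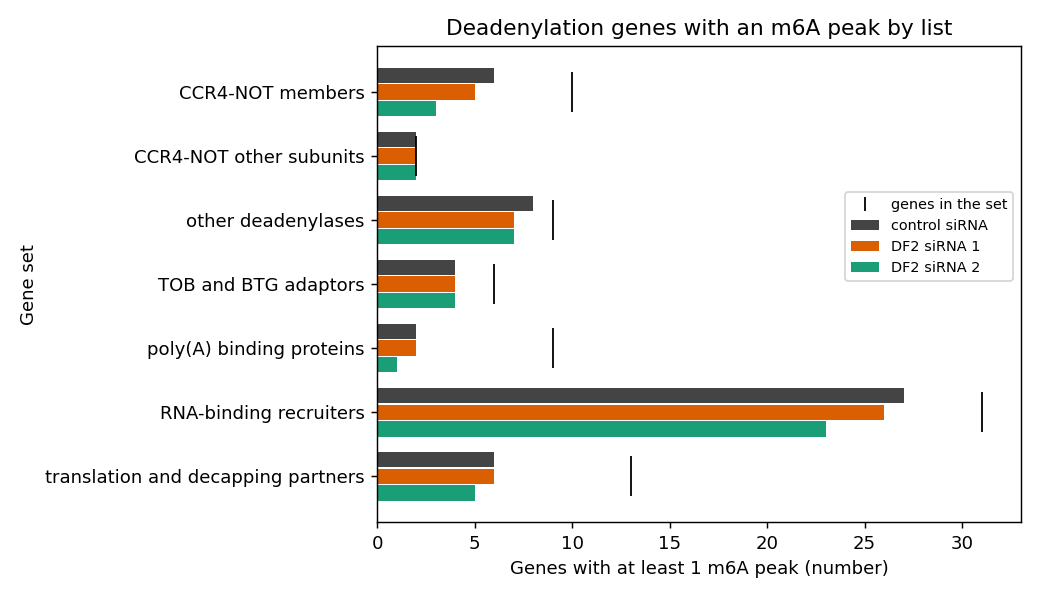
Number of genes with at least 1 m6A peak (x axis) in each list (colours) for the 10 CCR4-NOT subunits and 6 sets of related genes (rows), with a black mark at the number of genes in the set. The 10 subunits have 6, 5 and 3 genes in the control, siRNA 1 and siRNA 2 lists (4, 5 and 3 with equal numbers of top peaks), and the sets of adaptors and of other subunits have the same number in each list.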

How the data were processed

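The 3 peak lists, 1 per condition, were analysed as deposited. The submitters' processing notes name HISAT2, a read aligner, with no version, and the build hg38. The peak caller, the gene annotation and the way in which r1 and r2 were merged are not described in the labels or headers. What r1 and r2 stand for is not stated either. The labels hold 1 input and 1 m6A-IP library per condition. The deposited score is a whole number of 3 or more of unstated definition. The fold enrichment (ratio to input) and the −log10 FDR are the authors' values, per the file headers, and every peak had an FDR under 0.05. Other columns used, per the file headers, were coordinates and blocks, with start positions raised by 1 and block sizes reversed on the minus strand, so that the last block ended at the peak end in every row.

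Peaks were assigned to genes by the name in the files. No older symbol of the 10 subunits occurred. Peaks shared at least 1 base of a block on the same strand to count as overlapping, and overlaps between lists were joined into regions. A peak with a stop codon was classed there, otherwise by 5′ UTR, 3′ UTR or coding sequence from the authors' annotation. Percentiles use mean ranks within a list. Gene spans and promoter windows are RefSeq's (GRCh38.p14). All 10 subunits were named with all their peaks, and of each related set every gene with a peak in some lists and none in others, and up to 4 with a peak in all lists, in alphabetical order. Genes with no peak, and YTHDF2 as the siRNA target, were named after their values were seen. The subunits and sets were chosen with earlier results of these data known, and the searched words after the windows had been seen. A planned comparison of protein sequences was not run. On simulated lists with 3000 planted regions, the overlap code gave every peak its planted pattern. Python 3.11.15, pandas 2.3.3, scipy 1.17.1 and matplotlib 3.10.9 were used.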

Additional observations from a re-analysis of the deposited data

How the results depend on the processing

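Of 124 recomputed counts, 87 stayed within 1.5 times of the count given above. Of these 87, 7 could not move, because the setting meant to add other gene names found none and left the data unchanged. All 9 recomputed median percentiles left the 95% exact binomial interval of the value given above. That interval was computed over all peaks of a list. It does not measure the uncertainty of a median over 7, 6 or 4 subunit peaks. With an FDR under 0.01, siRNA 1 held 3 subunit genes, with 0 found in siRNA 1 alone, regions in control alone numbered 2, in siRNA 1 alone 1 and in both siRNAs without control 0, and 5′ UTR peaks numbered 0, 1 and 0 in control, siRNA 1 and siRNA 2. With the same number of top peaks, 1 gene and 1 region were in control alone, and control held 0 peaks in the 5′ UTR and 1 in the 3′ UTR. In the top 50% by score, siRNA 1 held 3 subunit genes and 30 pathway genes, with 1 gene and 1 region in control alone, 0 genes and regions in siRNA 1 alone, 0 regions in both siRNAs without control, 0 peaks in the 5′ UTR in any list and 1 control peak in the 3′ UTR. In the top 50% by fold, control and siRNA 1 held 3 subunit genes each, with 0 genes or regions in control alone, in siRNA 1 alone or in both siRNAs without control, 0 peaks in the 5′ UTR and 1 control peak in the 3′ UTR, and control held 32 pathway genes, siRNA 1 held 29 and 26 were in every list. CNOT2, CNOT4 and CNOT6 were the 3 genes in every list under all of these settings. Each cut also took peaks from all other genes, and the top 50% by score kept 7630, 6561 and 6673 peaks of the 3 lists. Shares over all genes at the top 50% settings are not given here. These counts are therefore no result about the subunits, and the cause of the shifts was not tested.

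The median percentile of 63.4, 46.3 and 61.0 in control, siRNA 1 and siRNA 2 was 46.3, 41.2 and 55.4 by fold and 35.2, 42.9 and 48.4 by −log10 FDR, so the order of the lists depends on the measure. Ranking only peaks in regions found in all lists gave 59.7, 54.3 and 55.0. Asking for at least 50% of each peak in common, allowing gaps of up to 100 bases, ignoring strand, adding other gene names and the stricter 5′ UTR class moved no count by more than 1.5 times. No paired analysis was possible because each condition has 1 list. Depth is unknown, and the number of peaks limits the precision.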
